A study of Homo sapiens with 40 samples.

Results

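The mRNAs of 7 RNA-binding adapters of the Ccr4-Not complex, out of 55765 counted gene symbols, were followed through 40 RNA-Seq libraries. They were picked by symbol and comprise ZFP36 (also called TTP) and its relatives ZFP36L1 and ZFP36L2, the Pumilio protein PUM2, NANOS1, and the Roquin proteins RC3H1 and RC3H2. All 7 symbols had a row in every library. Ccr4-Not shortens the poly(A) tail of mRNAs and represses their translation, and since it has little sequence preference of its own it depends on such adapters. Proteins of the ZFP36 family bind AU-rich elements in the 3′UTR through zinc fingers, Pumilio proteins bind a short UGUA-containing element and work with Nanos proteins, and Roquin proteins bind stem-loops. Most of these adapters touch CNOT1, the scaffold of the complex, and several of their known targets encode cytokines or immediate early proteins.

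All libraries came from HEK293, a human embryonic kidney cell line, and fall into 3 experiments with 12 groups. In the RNA immunoprecipitation experiment (RIP), cells without siRNA gave total RNA and RNA recovered under native conditions with antibodies against the endogenous helicases eIF4A1, eIF4A2 or DDX6 (IP, n = 3 libraries per group). In the gradient experiment, cells received control or CNOT1 siRNA, and cytoplasmic lysate run on sucrose gradients gave subpolysomal RNA (fractions 1 to 5) and polysomal RNA (fractions 6 to 11) beside an input sample (n = 4 per group). The TNRC6 experiment compared total RNA after control siRNA with that after joint TNRC6A/B siRNA, which targets genes whose proteins link Argonaute to Ccr4-Not (n = 2 per group). The siRNA experiments used 1 siRNA per targeted gene and the same time after transfection. The labels number the replicates without saying whether they are separate cultures, so that p-values measure the spread between these libraries, which may be technical.

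Libraries held 15353317 to 46018900 counts. The HEK293 markers NEFM, NEFL and VIM had medians of 2873, 723 and 421 CPM (counts scaled to a common library total) and PAX2 had 0.307 CPM, while 6 markers of other cell types summed to 0.203 to 1.96 CPM per library. CNOT1 itself fell from 672 to 39.6 CPM in input RNA after its siRNA (log2 -4.08, edgeR FDR 9.87e-18). The 2 polysomal libraries numbered replicate 3 went against their labels. The library labelled control siRNA held 28.3 CPM of CNOT1 where the other controls held 470, 501 and 479, and the library labelled CNOT1 siRNA held 631 CPM where the others held 29, 24 and 31.6. Both were left out of the gradient fit and of every polysomal mean, which leaves n = 3, and values from a fit of all 24 libraries are given beside the gradient results. In that fit the CNOT1 value in input RNA was -4.08 (FDR 0.00673). In polysomal RNA CNOT1 was at log2 -4.10 (FDR 2.8e-16) without the 2 libraries and at -1.05 (FDR 0.677) with all 24. TNRC6A stood at 178 and 189 CPM with control siRNA and at 40.5 and 64.7 CPM with TNRC6A/B siRNA, and TNRC6B at 67.6 and 73.1 against 17.7 and 26.3 CPM.

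The transcripts of the adapters hold elements of the kind that adapters read. In the longest annotated 3′UTR of each gene (GENCODE, build GRCh37), the AU-rich heptamer TATTTAT and the Pumilio element TGTANATA were counted on the transcript strand. The heptamer occurred 3 times each in ZFP36, ZFP36L1 and ZFP36L2, 5 times in RC3H2, 2 times in RC3H1 and 1 time each in PUM2 and NANOS1. Of all 19653 annotated 3′UTRs 31.9% hold it, and of those of like length to ZFP36, ZFP36L1 and ZFP36L2 19.1%, 39.0% and 39.3% do. For PUM2, NANOS1, RC3H1 and RC3H2 the like-length shares were 51.4%, 53.3%, 78.3% and 69.2%, and the counts of PUM2, NANOS1 and RC3H1 equalled the like-length medians of 1, 1 and 2. The Pumilio element occurred 2 times each in PUM2, RC3H1 and RC3H2 and in none of the others. It is present in 25.7% of all 3′UTRs and in 41.6%, 70.9% and 57.6% of those of like length to PUM2, RC3H1 and RC3H2. A match is a description of the letters and not a binding site.

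The matches below are shown because they place an element of one adapter class in the mRNA of the same or another class, with the matched letters in capitals and short flanks on either side. The 7-letter and 8-letter matches do not overlap each other in these mRNAs. All stretches read 5′ to 3′ on the strand of the transcript, in GRCh37.
ZFP36 (chr19:39899822-39899848, plus strand): atgggcccttTATTTATgacgacttta
ZFP36 (chr19:39899862-39899888, plus strand): gattttatagTATTTATatatattggg
ZFP36L1 (chr14:69255054-69255080, minus strand): tatcaaaacgTATTTATtgccaaacta
ZFP36L1 (chr14:69255012-69255038, minus strand): attttgttcaTATTTATcgggatgaca
ZFP36L2 (chr2:43450588-43450614, minus strand): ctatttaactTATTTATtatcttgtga
ZFP36L2 (chr2:43450540-43450566, minus strand): gttcatactgTATTTATcaagtatgat
NANOS1 (chr10:120790993-120791019, plus strand): aaaaattgtgTATTTATacagtaacag
PUM2 (chr2:20450904-20450931, minus strand): tttatagagaTGTATATAgaattatagt
PUM2 (chr2:20450644-20450671, minus strand): acagaaatatTGTATATActtacatatg
RC3H1 (chr1:173906046-173906073, minus strand): tagctatatcTGTATATAtattgggtat
RC3H2 (chr9:125610185-125610212, minus strand): actgataagtTGTAAATAtacctgagaa
RC3H2 (chr9:125611479-125611505, minus strand): ttagttaactTATTTATttctatttta

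**Figure D1:**
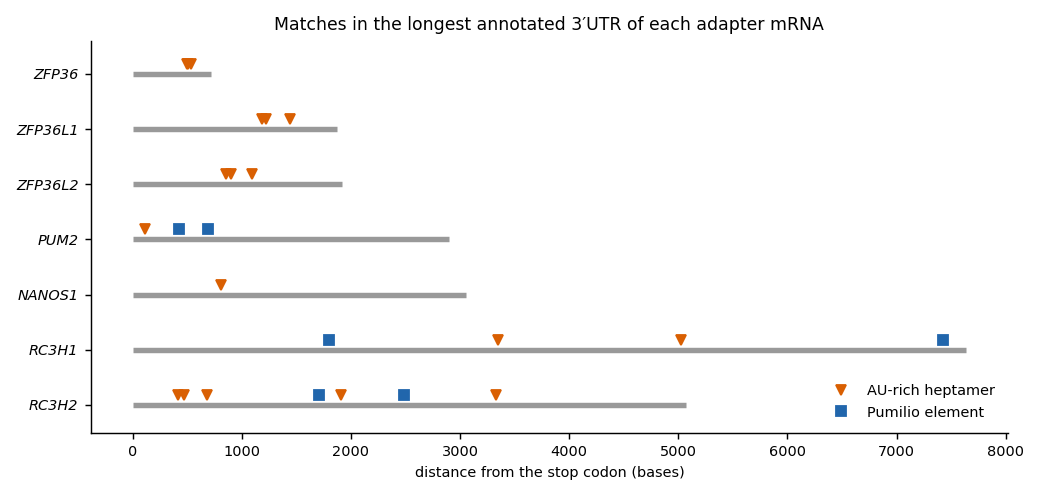
The longest annotated 3′UTR of each adapter mRNA is drawn to scale as a grey bar, with the distance from the stop codon in bases on the x axis and the gene on the y axis. Triangles mark the AU-rich heptamer and squares the Pumilio element, with 3 triangles in each ZFP36 family mRNA and squares in PUM2, RC3H1 and RC3H2 alone among the 7.

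The genes differ in length and neighbours, which bears on their counts. The 3′UTR of the longest form measured 713 bases in ZFP36 and 7637 bases in RC3H1. NANOS1 (chromosome 10, 120789226 to 120793242, plus strand) shares 61 of its 4017 exonic bases with EIF3A on the opposite strand, ZFP36L2 shares 826 of 3693 with an antisense lncRNA, and ZFP36L1 shares 512 of 6466 with a lncRNA on its own strand. The library kit keeps strand information, but the strand option of the counting was not stated, so these reads may be shared or lost.

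To set the genes beside each other, CPM was divided by exonic length. PUM2 had the highest level in RIP total RNA, at 28.7 ± 1.61 CPM per kb (SD, n = 3), and its libraries lay above those of all other adapters. ZFP36L2 (16.8 ± 1.49) and RC3H2 (14.6 ± 1.21) followed with overlapping values, as did ZFP36L1 (5.17 ± 0.426) and RC3H1 (4.98 ± 0.463). NANOS1 (1.92 ± 0.0624) and ZFP36 (0.494 ± 0.0685) came last without overlap. In control siRNA input the order was the same at the top and bottom, while RC3H1 (6.77 ± 0.118) stood above ZFP36L1 (3.27 ± 0.261) and ZFP36L1 overlapped NANOS1 (2.96 ± 0.305). With the length of the principal transcript in place of all exons, the middle of the order changed. RC3H2 stood above ZFP36L2 in RIP total RNA (18.8 against 16.8, overlapping) and in control input (23.9 against 19.5, without overlap). ZFP36L1 stood above RC3H1 without overlap in RIP total RNA (11.1 against 5.09) and with overlap in control input (7.01 against 6.92). ZFP36 was so rare that its raw counts ran from 3 to 72 per library.

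**Figure D2:**
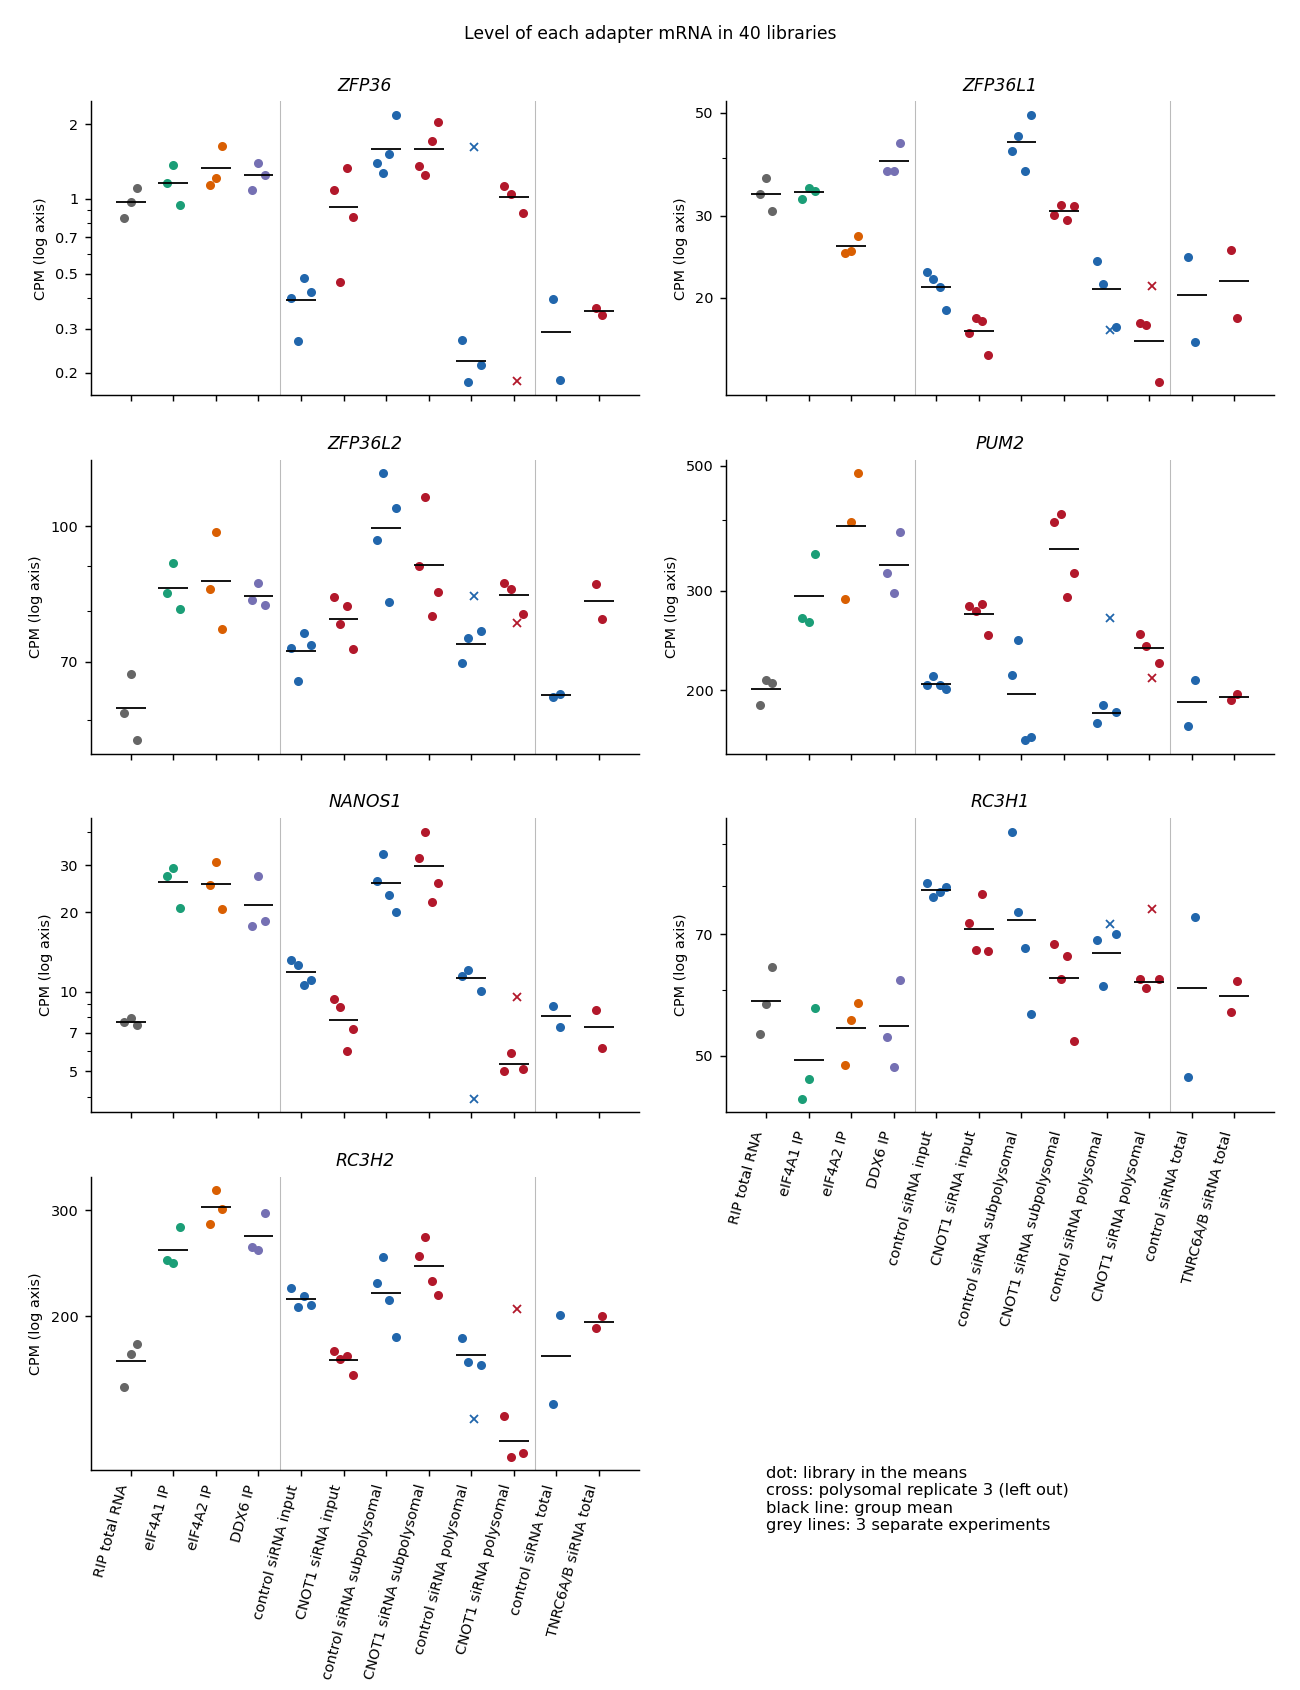
Each panel shows the level of 1 adapter mRNA in CPM on a log axis, with 1 symbol per library over the 12 groups, and black lines for group means. Crosses are the 2 polysomal replicate 3 libraries left out of the means, which for ZFP36, NANOS1 and RC3H2 lie on the side of the other siRNA.

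To see which adapter mRNAs were higher or lower in the IPs, each IP was compared with total RNA. The samples hold no library from a control IP with non-specific antibody. Whether a higher value reflects association with the helicase or recovery common to any IP was therefore not tested. NANOS1, PUM2, RC3H2 and ZFP36L2 were higher in all 3 IPs, with NANOS1 raised 2.76-fold to 3.36-fold and the other 3 by 1.34-fold to 1.95-fold. ZFP36L1, an AU-rich element binding protein, was lower in the eIF4A2 IP. ZFP36 and RC3H1 passed the test in none of the 3 IPs. These counts, 4 of 7 higher in each IP and 1 lower in the eIF4A2 IP, stand against 26.1%, 24.5% and 22.7% of all tested genes called higher in the eIF4A1, eIF4A2 and DDX6 IPs and 25.8% called lower in the eIF4A2 IP. The median log2 fold change of the 7 was 0.46, 0.48 and 0.43, beside 0.04, 0.01 and 0.01 over all 17474 genes. Because the 3 IPs are divided by the same total RNA libraries, their shared calls are not independent of each other.

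NANOS1, whose protein works with Pumilio on shared targets, was measured at 7.66, 7.96 and 7.47 CPM in total RNA. It reached 27.4, 29.4 and 20.8 CPM in the eIF4A1 IP, 25.2, 31.0 and 20.5 CPM in the eIF4A2 IP and 17.7, 27.4 and 18.5 CPM in the DDX6 IP. Every IP library thus lay above every total RNA library. The log2 fold changes were 1.75 (SE 0.21, edgeR FDR 1.93e-05), 1.73 (SE 0.21, FDR 1.91e-05) and 1.46 (SE 0.21, FDR 0.000116). EIF3A, the gene on the opposite strand, did not pass in the eIF4A1 or eIF4A2 IP (log2 0.14 and 0.02) and fell by 1.15 in the DDX6 IP (FDR 0.00765).

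PUM2 stood at 188, 208 and 206 CPM in total RNA. In the eIF4A1 IP it was found at 268, 264 and 349 CPM, in the eIF4A2 IP at 290, 398 and 485 CPM and in the DDX6 IP at 322, 297 and 382 CPM. All 9 IP libraries exceeded total RNA, although the eIF4A2 IP libraries spread widely. The log2 fold changes were 0.55 (SE 0.19, FDR 0.025), 0.96 (SE 0.19, FDR 0.000879) and 0.73 (SE 0.19, FDR 0.00633). The eIF4A1 call was lost on leaving out total RNA replicate 1 (FDR 0.0832), total RNA replicate 3 (FDR 0.0519) or eIF4A1 IP replicate 3 (log2 0.41, FDR 0.103).

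The Roquin pair differed in their values. RC3H2 was found at 153, 173 and 180 CPM in total RNA and at 248, 245 and 281 CPM in the eIF4A1 IP. It reached 284, 324 and 301 CPM in the eIF4A2 IP and 261, 258 and 297 CPM in the DDX6 IP. No IP library overlapped total RNA, and the log2 fold changes were 0.61 (FDR 0.00148), 0.84 (FDR 0.000142) and 0.69 (FDR 0.000875), each with SE 0.13. RC3H1 held 53.1, 57.7 and 63.9 CPM in total RNA against 44.4, 46.9 and 57.0 CPM in the eIF4A1 IP, with overlap. Its log2 fold change there was -0.24 (SE 0.14, FDR 0.182), and it was called lower when the replicate number was a block (FDR 0.0374). In the eIF4A2 and DDX6 IPs it had -0.11 (95% interval -0.42 to 0.20) and -0.10 (-0.41 to 0.21).

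In the ZFP36 family, ZFP36L2 stood at 61.2, 67.8 and 56.9 CPM in total RNA and at 76.3 to 98.4 CPM over all 9 IP libraries, without overlap. Its log2 fold changes were 0.46 (FDR 0.0096), 0.48 (FDR 0.00715) and 0.43 (FDR 0.0161) in the eIF4A1, eIF4A2 and DDX6 IPs, each with SE 0.13. The DDX6 call was lost without total RNA replicate 1 (FDR 0.053) or replicate 3 (FDR 0.0601).

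ZFP36L1 was found at 33.4, 36.2 and 30.7 CPM in total RNA and at 25.0, 25.2 and 27.2 CPM in the eIF4A2 IP. These groups did not overlap, and the log2 fold change was -0.38 (SE 0.12, FDR 0.0162). The call was lost without total RNA replicate 2 (FDR 0.0738), eIF4A2 IP replicate 1 (FDR 0.0558) or eIF4A2 IP replicate 2 (FDR 0.0506), with only the compared libraries in the fit (log2 -0.32, FDR 0.0685) and with no filter on low counts (FDR 0.139). In the eIF4A1 IP the libraries held 32.6, 34.5 and 34.0 CPM, within the range of total RNA (log2 0.01, 95% interval -0.24 to 0.26). In the DDX6 IP they held 37.5, 37.5 and 43.0 CPM, all above total RNA, but the difference did not pass (log2 0.23, FDR 0.115). ZFP36 had 31 to 72 raw counts in the RIP libraries. Its log2 values of 0.26, 0.46 and 0.35 had 95% intervals of -0.24 to 0.76, -0.03 to 0.96 and -0.14 to 0.85, which hold both 0 and the values of ZFP36L2.

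**Figure D3:**
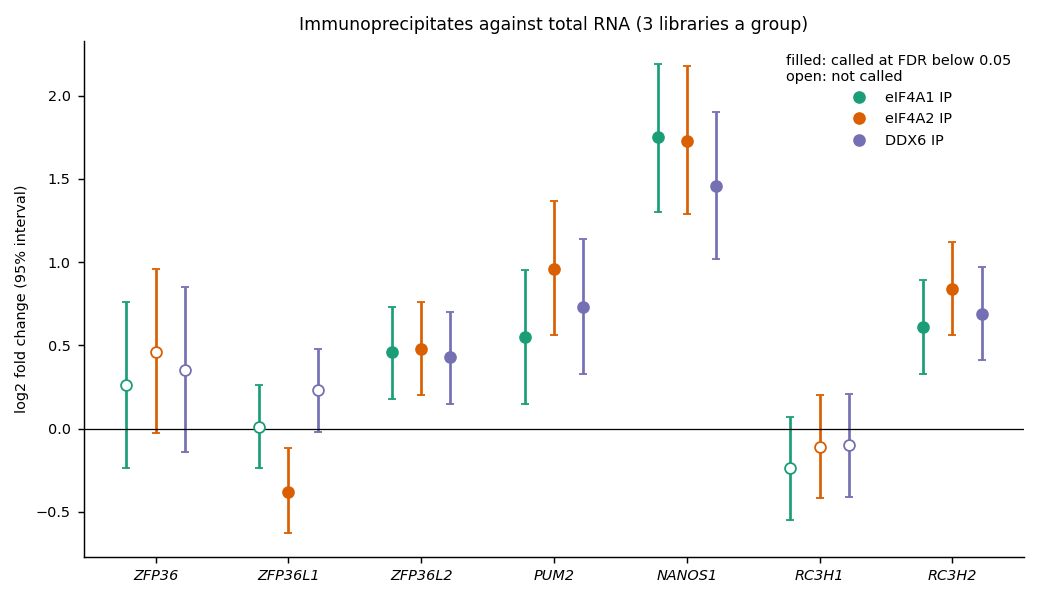
The log2 fold change of each adapter mRNA in the eIF4A1, eIF4A2 and DDX6 IPs over total RNA is plotted with its 95% interval, filled where the FDR was below 0.05. NANOS1 lies highest, from 1.46 to 1.75, and ZFP36L1 in the eIF4A2 IP is the called point below 0.

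The IPs were then tested against each other, since separate calls against total RNA cannot establish a difference. ZFP36L1 was lower in the eIF4A2 IP than in the DDX6 IP (25.8 ± 1.19 against 39.3 ± 3.15 CPM, n = 3, log2 -0.61, SE 0.12, edgeR FDR 0.00484), without overlap of the libraries. It was the single member called there, beside 11.3% of all genes called lower. Against the eIF4A1 IP (33.7 ± 0.977 CPM) ZFP36L1 had a log2 value of -0.39 (SE 0.12) that did not pass (FDR 0.134), and it passed with the replicate number as a block (FDR 0.0217) and with DESeq2 (FDR 0.0333). By edgeR 0 of 7 members were called between the eIF4A2 and eIF4A1 IPs, where 1.06% of all genes were, and 0 of 7 between the DDX6 and eIF4A1 IPs, where 0.0916% were. At an unadjusted edgeR p below 0.05, ZFP36L1 (p 0.00544) and PUM2 (p 0.0455) passed between eIF4A2 and eIF4A1 and none of the 7 between DDX6 and eIF4A1. Of all 17474 genes, 3116 and 2438 had such a p. DESeq2 called 1 and 0 members in these comparisons, beside 4.01% and 4.37% of the genes to which it gave an FDR. For NANOS1 the difference between the eIF4A2 and eIF4A1 IPs was -0.02 (95% interval -0.44 to 0.41), and for PUM2 it was 0.41 (0.01 to 0.82).

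CNOT1 siRNA moved 5 of the 7 adapter mRNAs in input RNA. ZFP36 and PUM2 rose by 2.34-fold and 1.33-fold, and NANOS1, RC3H2 and ZFP36L1 fell to 0.658, 0.791 and 0.800 of control. Of all 17115 tested genes, 19.6% were called higher and 21.1% lower. The median log2 fold change was -0.16 for the 7 and -0.03 for all genes. In such bulk RNA, fewer cells holding a transcript and fewer copies per cell cannot be told apart. With all 24 libraries in the fit, PUM2 alone was called (FDR 0.031), and ZFP36, NANOS1, RC3H2 and ZFP36L1 had the same log2 values at FDR 0.0597, 0.0793, 0.0677 and 0.0687. That fit called 2245 of 16776 genes higher and 2614 lower.

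ZFP36, which limits cytokine mRNAs, had 13, 9, 17 and 15 raw counts in control siRNA input and 36, 18, 51 and 35 with CNOT1 siRNA. These correspond to 0.398, 0.269, 0.48 and 0.423 CPM against 1.09, 0.463, 1.33 and 0.845 CPM, which overlap at 1 library. The log2 fold change was 1.23 (SE 0.28, edgeR FDR 0.00156). PUM2 held 204, 212, 204 and 201 CPM with control siRNA and 282, 276, 284 and 250 CPM with CNOT1 siRNA, without overlap (log2 0.41, SE 0.11, FDR 0.00681).

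NANOS1 fell from 13.2, 12.6, 10.6 and 11.1 CPM to 9.38, 8.77, 5.96 and 7.22 CPM. The groups did not overlap (log2 -0.60, SE 0.17, FDR 0.00834), whereas EIF3A on the opposite strand rose (log2 0.39, FDR 0.00863, or 0.118 with all 24). RC3H2 fell from 223, 207, 216 and 209 CPM to 175, 170, 172 and 160 CPM, again without overlap (log2 -0.34, SE 0.09, FDR 0.0042). ZFP36L1 went from 22.7, 22, 21.1 and 18.8 CPM to 16.8, 18.1, 17.8 and 15.1 CPM (log2 -0.32, SE 0.11, FDR 0.0269). This was the least firm of the 5 calls, since it was lost in 5 of 8 fits that left out 1 library, namely control replicate 1 (FDR 0.0771), 2 (0.0644) or 3 (0.0503) and CNOT1 siRNA replicate 1 (0.055) or 4 (0.0918). It was also lost with no filter on low counts (FDR 0.0769). ZFP36L2 had 78.4 ± 4.63 CPM against 71.9 ± 3.8 (n = 4, log2 0.12, FDR 0.326) and RC3H1 71.1 ± 5.39 against 79.2 ± 1.39 CPM (n = 4, log2 -0.16, FDR 0.273), and neither passed, with all 24 libraries too (FDR 0.375 and 0.332).

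In subpolysomal RNA 2 of 7 members were called. PUM2 rose from 213, 245, 163 and 165 CPM to 397, 411, 292 and 323 CPM, a log2 fold change of 0.85 (SE 0.12, FDR 4.88e-06). ZFP36L1 fell from 41.4, 44.5, 37.5 and 49.5 CPM to 30.1, 31.7, 29.4 and 31.5 CPM (log2 -0.49, SE 0.11, FDR 0.00136). Neither gene's groups overlapped, and both were also called with all 24 libraries (FDR 9.31e-05 and 0.00649). Over all genes 17.7% were called higher and 24.3% lower. NANOS1 (log2 0.22, 95% interval -0.13 to 0.58), RC3H2 (0.15, -0.04 to 0.33), RC3H1 (-0.23, -0.46 to 0.00), ZFP36L2 (-0.14, -0.34 to 0.07) and ZFP36 (-0.01, -0.53 to 0.51) did not pass, nor did they with all 24 libraries (FDR 0.146 to 0.993). Without control subpolysomal replicate 4, RC3H1 was called lower (log2 -0.34, FDR 0.0123).

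In polysomal RNA the same 5 genes were called as in input RNA, each in the same direction. ZFP36 rose by 4.45-fold and PUM2 by 1.31-fold, and NANOS1, RC3H2 and ZFP36L1 fell to 0.473, 0.721 and 0.770 of control. These are 2 higher and 3 lower of 7, beside 17.1% and 14.6% of all genes. Scaling by RLE factors moved the split over all genes from 2925 higher and 2501 lower to 2251 higher and 3079 lower, and the median of all genes from 0.00 to -0.07. With all 24 libraries, 0 members and 0 genes were called by edgeR, with 1123 genes at an unadjusted p below 0.05.

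ZFP36 held 0.27, 0.184 and 0.215 CPM in the control polysomal libraries, which rest on 4 to 7 raw counts, and 1.13, 1.05 and 0.879 CPM with CNOT1 siRNA. The groups did not overlap (log2 2.15, SE 0.40, edgeR FDR 0.000318), and with all 24 libraries the value was 0.49 (FDR 0.755). The library labelled control polysomal replicate 3 held 1.61 CPM and the one labelled CNOT1 siRNA polysomal replicate 3 held 0.186 CPM, each nearer to the other siRNA than to its own label. NANOS1 held 11.5, 12.1 and 10.1 CPM with control and 5.01, 5.85 and 5.11 CPM with CNOT1 siRNA (log2 -1.08, SE 0.21, FDR 0.000516, or -0.57 and FDR 0.663 with all 24). The replicate 3 libraries, at 3.95 CPM under the control label and 9.54 CPM under the CNOT1 label, were again crossed.

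RC3H2 held 184, 168 and 166 CPM against 137, 117 and 119 CPM, without overlap (log2 -0.47, SE 0.10, FDR 0.00125, or -0.17 and FDR 0.706 with all 24). ZFP36L1 held 24, 21.4 and 17.3 CPM against 17.7, 17.5 and 13.2 CPM, which overlap (log2 -0.38, SE 0.13, FDR 0.0341, or -0.20 and FDR 0.673 with all 24). Its call was lost without control replicate 1 (FDR 0.127), control replicate 2 (FDR 0.0911) or CNOT1 siRNA replicate 4 (log2 -0.25, FDR 0.197), with only the compared libraries (FDR 0.0735) and with no filter (FDR 0.0568). PUM2 held 175, 188 and 183 CPM against 251, 239 and 223 CPM, without overlap (log2 0.39, SE 0.13, FDR 0.0294, or 0.18 and FDR 0.692 with all 24).

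The polysomal call of PUM2 depended on the settings. It was lost with RLE factors (log2 0.31, FDR 0.0985), with DESeq2 (log2 0.31, FDR 0.0973) and with no filter (FDR 0.0891). It was also lost without control replicate 1 (log2 0.32, FDR 0.157), 2 (FDR 0.054) or 4 (FDR 0.0659) or CNOT1 siRNA replicate 1 (FDR 0.103) or 2 (FDR 0.0706). ZFP36L2 (log2 0.18, 95% interval -0.05 to 0.42, or 0.11 with all 24) and RC3H1 (-0.12, -0.38 to 0.15, or -0.07 with all 24) did not pass.

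**Figure D4:**
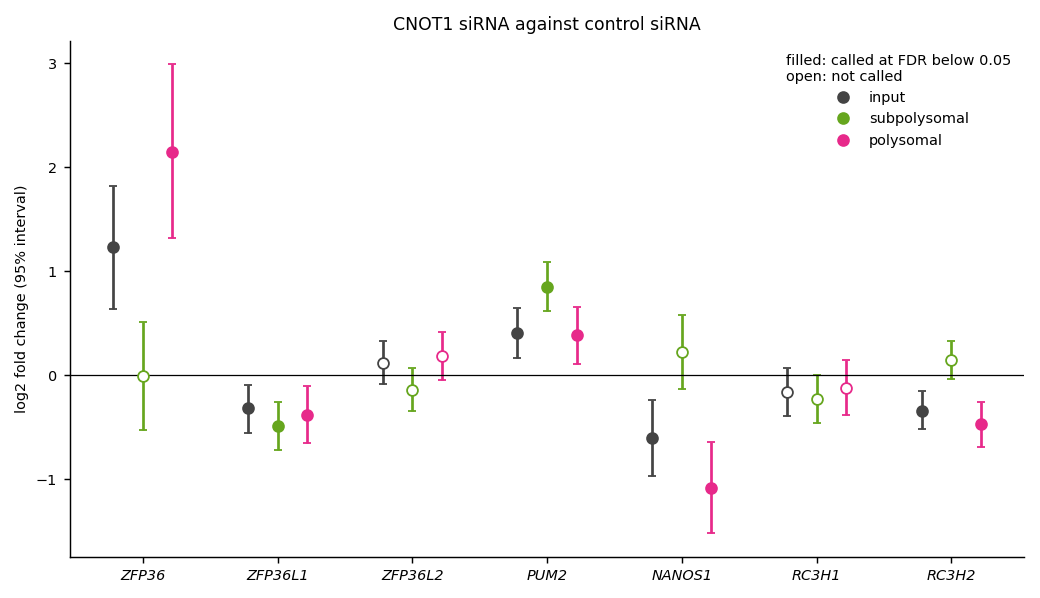
The log2 fold change of each adapter mRNA after CNOT1 siRNA over control siRNA is plotted with its 95% interval for input, subpolysomal and polysomal RNA, filled where the FDR was below 0.05. ZFP36, NANOS1 and RC3H2 are filled in input and polysomal RNA and open in subpolysomal RNA, and PUM2 and ZFP36L1 are filled in all 3.

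The distribution along the gradient was compared next, as polysomal over subpolysomal RNA. Each library was scaled to its own total, so lower values mean fewer polysomal reads relative to other genes. They do not measure the share of a gene's molecules outside polysomes, and shifts between siRNAs are relative in the same way. With control siRNA 5 of 7 adapter mRNAs were lower in polysomal RNA, beside 38.4% of all genes. They were ZFP36 (log2 -2.76, SE 0.37, FDR 6.21e-07), NANOS1 (-1.18, SE 0.19, FDR 9.32e-06), ZFP36L1 (-1.03, SE 0.13, FDR 1.28e-07), ZFP36L2 (-0.43, SE 0.11, FDR 0.00111) and RC3H2 (-0.33, SE 0.10, FDR 0.00404). PUM2 (-0.10, FDR 0.478, or 0.05 and FDR 0.771 with all 24) and RC3H1 (-0.12, FDR 0.385, or -0.10 and FDR 0.46) did not pass. All 5 calls were also made with all 24 libraries, with log2 values of -1.44, -1.45, -1.11, -0.39 and -0.42. With no filter on low counts ZFP36L2 (log2 -0.28, FDR 0.0821) and RC3H2 (log2 -0.19, FDR 0.301) were not called. The median log2 value was -0.43 for the 7 and -0.10 for all genes.

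With CNOT1 siRNA 4 of 7 were lower in polysomal RNA, beside 35.9% of all genes. They were NANOS1 (log2 -2.48, SE 0.21, FDR 3.1e-10), RC3H2 (-0.95, SE 0.10, FDR 1.1e-08), ZFP36L1 (-0.92, SE 0.13, FDR 8.59e-07) and PUM2 (-0.57, SE 0.13, FDR 0.000329). All 4 were called with all 24 libraries too, at -2.24, -0.74, -0.82 and -0.62. ZFP36 (-0.60, SE 0.28) missed the threshold (FDR 0.0601), also with all 24 libraries (-0.93, FDR 0.0782), and passed with RLE factors (FDR 0.0421), with only the compared libraries (FDR 0.033) and without CNOT1 siRNA subpolysomal replicate 2 (FDR 0.0388). ZFP36L2 (-0.10, 95% interval -0.32 to 0.11, or -0.14 with all 24) and RC3H1 (-0.01, -0.26 to 0.25, or 0.06 with all 24) did not pass.

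Whether CNOT1 siRNA changed this distribution was tested by an interaction term, which subtracts the subpolysomal from the polysomal siRNA effect. ZFP36 shifted toward polysomes, and NANOS1 and RC3H2 shifted away from them. Thus 1 of 7 members was higher and 2 were lower, beside 9.99% and 7.51% of all genes. With RLE factors the split over all genes was 1165 higher and 1630 lower in place of 1709 and 1285, and the median of all genes moved from 0.07 to -0.01. With all 24 libraries none of these 3 passed, beside 547 of 16776 genes higher and 402 lower.

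The log2 ratio of polysomal to subpolysomal CPM was taken for each pair of same-numbered libraries, with 0.5 CPM added to both. The labels do not say that such a pair came from the same gradient. Their deviations had r of -0.308, 0.155 and -0.179 with control siRNA and -0.0439, 0.0145 and -0.136 with CNOT1 siRNA. For ZFP36 the ratios were -1.30, -1.37 and -1.91 with control siRNA and -0.19, -0.17 and -0.87 with CNOT1 siRNA. The added 0.5 CPM exceeds its control polysomal values in the means (0.184 to 0.270 CPM). Without it the ratios were -2.37, -2.79 and -3.34 against -0.26, -0.25 and -1.20. The ratios did not overlap between the siRNAs either way. The fitted difference was 2.16 (SE 0.48, edgeR FDR 0.00316), or 0.50 (FDR 0.72) with all 24 libraries. Its control polysomal value rests on 4 to 7 counts per library.

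For NANOS1 the ratios were -1.15, -1.42 and -0.95 with control siRNA and -2.56, -2.68 and -2.22 with CNOT1 siRNA, without overlap. The fitted difference was -1.30 (SE 0.27, FDR 0.00192), or -0.79 (FDR 0.218) with all 24. EIF3A, with which its reads may be shared, moved the other way (0.90, FDR 0.000999, or 0.51 and FDR 0.276 with all 24). For RC3H2 the ratios were -0.30, -0.58 and -0.15 against -0.88, -1.21 and -0.86, again without overlap. The fitted difference was -0.62 (SE 0.14, FDR 0.00285), or -0.32 (FDR 0.368) with all 24.

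PUM2 had ratios of -0.29, -0.38 and 0.15 with control siRNA and of -0.66, -0.78 and -0.53 with CNOT1 siRNA, without overlap. Its difference of -0.47 (SE 0.18) missed the threshold (FDR 0.0694). It passed with the replicate number as a block (FDR 0.0208), with RLE factors (-0.55, FDR 0.0435), with no filter (-0.54, FDR 0.0478), with DESeq2 (-0.55, FDR 0.0246) and with all 24 libraries (-0.67, FDR 0.0444). It also passed without control subpolysomal replicate 2 (FDR 0.0103) or CNOT1 siRNA subpolysomal replicate 3 (FDR 0.0257). ZFP36L2 had ratios of -0.46, -0.62 and -0.47 against -0.07, -0.35 and -0.09, also without overlap, and a difference of 0.32 (95% interval 0.01 to 0.63, FDR 0.151, or 0.25 and FDR 0.347 with all 24), which passed without control subpolysomal replicate 3 (FDR 0.041) or CNOT1 siRNA subpolysomal replicate 2 (FDR 0.0396). ZFP36L1 (0.11, -0.25 to 0.47, or 0.29 with all 24) and RC3H1 (0.11, -0.24 to 0.47, or 0.16 with all 24) did not pass.

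**Figure D5:**
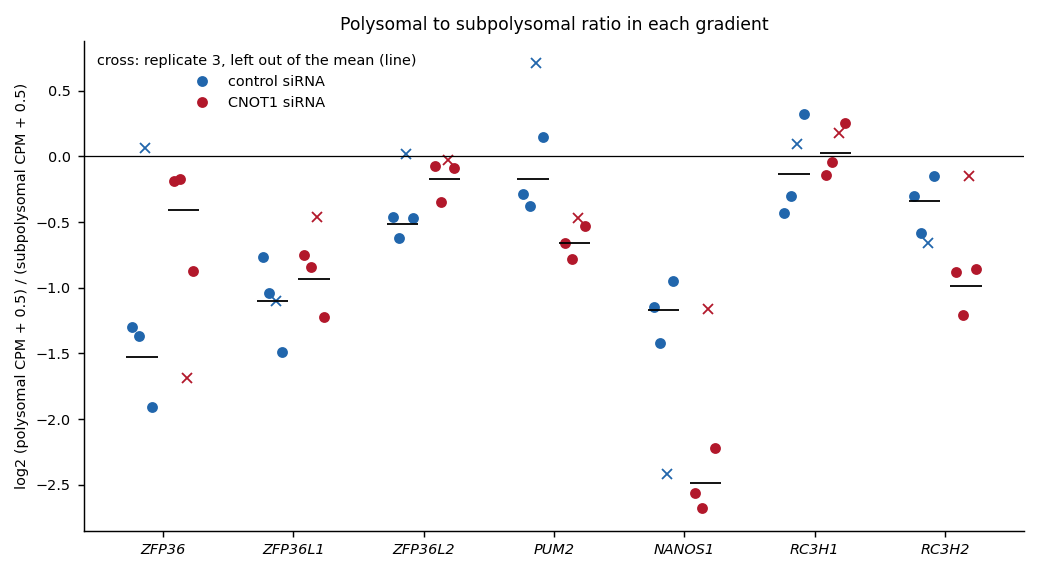
The log2 ratio of polysomal to subpolysomal CPM (0.5 added to both) is plotted for each same-numbered pair of libraries and each adapter mRNA. Blue stands for control and red for CNOT1 siRNA, with lines for the means of 3 pairs. In the fit without replicate 3, the difference between the siRNAs passed the test for ZFP36, NANOS1 and RC3H2 and not for the other members. The crosses of replicate 3 lie nearer to the other siRNA for ZFP36 and NANOS1.

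After TNRC6A/B siRNA 0 of the 6 members tested were called by edgeR, where 0% of the 14064 genes were. Over all genes 289 had an unadjusted p below 0.05, none of them a member, and DESeq2 called 6 higher and 2 lower. With the replicate number as a block 520 genes were called higher and 243 lower, and no call of a member changed. ZFP36L2 held 63.8 and 64.3 CPM with control siRNA and 85.8 and 78.4 CPM with TNRC6A/B siRNA (log2 0.36, 95% interval -0.16 to 0.88, unadjusted edgeR p 0.135). NANOS1 held 8.87 and 7.37 against 8.52 and 6.14 CPM, and PUM2 173 and 208 against 192 and 197 CPM. The intervals of the other members were wide, as for ZFP36L1 (0.10, -0.78 to 0.98) and RC3H1 (-0.03, -0.78 to 0.72). ZFP36, with 3 to 11 counts per library, was not tested. TNRC6A (log2 -1.80) and TNRC6B (log2 -1.68) themselves missed the edgeR threshold here (FDR 1.0 for both) and passed with DESeq2 (FDR 0.0246 and 0.0329).

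The rest of the pathway was followed through 3 lists, of 12 Ccr4-Not subunits, 20 other adapters and 22 known targets of the adapters. The share of all genes called lower was 26.5% in the eIF4A1 IP, 25.8% in the eIF4A2 IP and 23.3% in the DDX6 IP, and the shares called higher were those given above, 26.1%, 24.5% and 22.7%. Of 12 subunits 3 were higher in each IP, and 6, 5 and 5 were lower in the eIF4A1, eIF4A2 and DDX6 IPs. Their median log2 values of -0.40, -0.28 and -0.38 stood beside 0.04, 0.01 and 0.01 for all genes. CNOT3 fell by 1.32 on the log2 scale in the eIF4A2 IP (44.5 ± 20.3 against 111 ± 25.9 CPM, n = 3, FDR 0.00919), and CNOT10 fell by 0.74 in the DDX6 IP (FDR 0.000137).

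Of 18 other adapters tested, 7 were higher in each IP and 3, 3 and 1 lower, with medians of 0.12, 0.10 and 0.32. SAMD4B, a Smaug protein, rose by 0.98 in the eIF4A1 IP (385 ± 27.0 against 196 ± 33.7 CPM, n = 3, FDR 0.000273) and by 1.10 in the DDX6 IP (FDR 0.000181). Of 19 targets tested, 4, 3 and 5 were higher, near or below the share of all genes, and 1, 3 and 2 lower, with medians of 0.17, 0.27 and 0.19. FOS, an immediate early gene, rose by 1.18 and 1.48 in the eIF4A1 and eIF4A2 IPs (FDR 0.00282 and 0.000599). Between the eIF4A2 and DDX6 IPs, where 9.82% of all genes were higher and 11.3% lower, 2 genes of each list were lower in the eIF4A2 IP and 1 target was higher. CNOT7, a deadenylase, was lower there (log2 -0.82, FDR 0.0243), as were BTG2 (-0.53, FDR 0.0194) and IER3 (-0.80, FDR 0.0195).

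After CNOT1 siRNA in input RNA, where 19.6% of all genes were higher and 21.1% lower, 6 of 12 subunits were higher and 3 lower, CNOT1 included. Of 18 other adapters 10 were higher and 3 lower, and of 18 targets 10 were higher and 1 lower. The medians were 0.29, 0.27 and 0.49, beside -0.03 for all genes. The counts were 3 and 3, 6 and 2, and 7 and 1 with all 24 libraries, beside 2245 of 16776 genes higher and 2614 lower. CPEB1, which binds cytoplasmic polyadenylation elements, rose from 2.55 ± 0.338 to 6.95 ± 0.610 CPM (n = 4, log2 1.44, FDR 5.1e-07, or 0.00673 with all 24). TNF, a well-known ZFP36 target, was at 0.103 ± 0.0401 CPM with control and 0.698 ± 0.455 CPM with CNOT1 siRNA (n = 4, log2 2.71, FDR 7.86e-05, or 0.0119 with all 24). These means are near the floor and below those of the rare ZFP36 in the same groups (0.393 and 0.932 CPM), so the size of the TNF change is loosely fixed.

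In subpolysomal RNA 17.7% of all genes were higher and 24.3% lower. Of the subunits 4 were higher and 1, the targeted CNOT1, was lower (log2 -1.79). Among the other adapters 10 were higher and 2 lower, and among the targets 2 were higher and 3 lower. These counts were 3 and 0, 7 and 1, and 0 and 1 with all 24 libraries. In polysomal RNA, beside 17.1% higher and 14.6% lower, the counts were 6 and 3, 9 and 4, and 11 and 1. The targeted CNOT1 was among the 3 lower subunits (log2 -4.10). With all 24 libraries no list gene was called. CPEB1 rose in both (log2 1.21, FDR 4.19e-06, and 1.43, FDR 9.94e-06), with 1.21 (FDR 0.00792) and 0.44 (FDR 0.689) in the fit of all 24.

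For polysomal against subpolysomal RNA with control siRNA, where 33.7% of all genes were higher and 38.4% lower, 14 of 18 targets were lower and 2 higher (median log2 -0.79, beside -0.10 for all genes). With all 24 libraries 6 targets were lower and 4 higher (median -0.36), beside 6199 of 16776 genes lower and 5837 higher. Of the subunits 8 were higher and 2 lower, and of the other adapters 6 and 8, or 6 and 1 and 6 and 3 with all 24. NFKBID was at 0.437 ± 0.0434 against 3.93 ± 0.275 CPM (n = 3 and 4, log2 -3.14, edgeR FDR 2.72e-11, or -3.02 with all 24). CNOT6L, a deadenylase subunit, and TNRC6B were higher in polysomal RNA (log2 1.10 and 1.33, or 1.42 and 1.56 with all 24).

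With CNOT1 siRNA, where 36.0% of all genes were higher and 35.9% lower, 7 targets were lower and 5 higher (median -0.28, beside -0.01), and 6 and 5 with all 24. The fit of all 24 called 5817 of 16776 genes lower and 5719 higher. Of the subunits 5 were higher and 3 lower, and of the other adapters 7 and 4, or 5 and 2 and 4 and 3 with all 24. NFKBIZ was at 2.31 ± 0.434 against 16.9 ± 1.37 CPM (log2 -2.85, FDR 8.08e-12, or -2.92 with all 24), and UNK was lower (log2 -1.21 in both fits).

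CNOT1 siRNA shifted 6 of 18 targets toward polysomes and 0 away from them, beside 9.99% and 7.51% of all genes. IER3 had the largest called change (log2 1.34, SE 0.32, FDR 0.00576, or 0.24 and FDR 0.844 with all 24). Of the other adapters 4 shifted toward polysomes and 2 away, with BTG2 at 1.16 (FDR 0.000114, or 0.46 and FDR 0.484 with all 24). Of the subunits, a list that holds the targeted CNOT1, 1 shifted toward polysomes and 3 away. No gene of the 3 lists was called for this change with all 24 libraries, beside 547 of 16776 genes higher and 402 lower. After TNRC6A/B siRNA none of the 12, 18 and 16 list genes tested was called, the targeted TNRC6A and TNRC6B among the other adapters included.

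The group means were also used to find genes with a similar course, by Pearson's r of log2 CPM over the 12 groups after centring each experiment, among 11952 genes. The 12 points share libraries, scaling and controls, so r describes these data and carries no p. NANOS1 was likest RNF145 (r = 0.989) and APPL2 (0.985), ZFP36L1 was likest MYL6B and KXD1 (0.983 each), and ZFP36L2 was likest CBX7 (0.963) and PGP (0.953). PUM2 was likest ZZZ3 (0.957) and HIAT1 (0.949), RC3H1 was likest TTC21B (0.957) and ATAD5 (0.937), and RC3H2 was likest PDE10A (0.952) and ZNRF2P2 (0.946). ZFP36, the rarest member, was left out. Among the other 6 members, NANOS1 and RC3H2 had the highest r, 0.90, and PUM2 and RC3H1 the lowest, -0.47.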

How the data were processed

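RNA-Seq was performed on poly(A)-selected, strand-specific libraries of HEK293 cells. The deposited files of the 40 libraries hold counts, 1 integer per gene symbol, which the authors made by TopHat2 alignment to hg19 and htseq-count after bcl2fastq 2.0. The strand option was not stated. A further deposited table, which holds the authors' own edgeR results for each IP against total RNA (fold changes, mean log CPM, likelihood ratios, p-values and FDR), was not used.

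For differential expression edgeR 4.0.16 under R 4.3.3 was run on the counts (TMM factors, filterByExpr, quasi-likelihood F-test, two-sided, Benjamini-Hochberg FDR below 0.05 over all genes), with 1 fit per experiment, over 12, 22 and 4 libraries. The filter kept 17474, 17115 and 14064 of 55765 symbols. All 7 members passed it in the RIP and gradient fits and 6 in the TNRC6 fit. CPM was computed from the TMM-adjusted totals within an experiment. The SE was taken as the absolute log2 fold change over the square root of its F statistic, and intervals are 95% intervals from that SE. Reads carry no molecular identifiers, so the counts are of reads and not of molecules. Depth (15353317 to 46018900 counts per library) bears on counting error and on which genes pass the filter. The scripts were tested on simulated data. Each result was recomputed with RLE factors, with DESeq2 1.42.0, without the filter, with only the compared libraries, all 24 gradient libraries, the replicate number as a block, and leaving out each library. Transcript features and sequences came from GENCODE on GRCh37, the build named hg19 in the labels.

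Same-numbered libraries deviated together in all 18 RIP pairs (r 0.138 to 0.628), and between control and CNOT1 siRNA within each gradient fraction, so the numbers pair the libraries there. The reported fits hold no replicate block, and the blocked value is given where it changed a call. Genes named are the members, targeted genes, the called gene with the largest change in each list, the 2 likest genes of each member, and EIF3A, which was added for its overlap with NANOS1 after its values were seen. A further gene of the rule is not reported here. The members and lists were chosen with earlier results of these data known.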

Additional observations from a re-analysis of the deposited data

Results flagged for a closer look

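In the groups of 4 libraries, 3 values of members stood apart from the other 3 libraries of their label, all of them in polysomal replicate 3. ZFP36 was at 1.61 CPM and PUM2 at 268 CPM in the library labelled control siRNA, and RC3H1 was at 75 CPM in the library labelled CNOT1 siRNA. In all 42 such groups of 4 were examined, and chance gives such a value in about 1 of 20. CNOT1 itself was at 631 CPM in the library labelled CNOT1 siRNA polysomal replicate 3, above the highest library of the control siRNA polysomal group (501 CPM).

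The effect of CNOT1 siRNA differed between polysomal and subpolysomal RNA for ZFP36 (log2 difference 2.16, edgeR FDR 0.00316), NANOS1 (-1.30, FDR 0.00192) and RC3H2 (-0.62, FDR 0.00285), by a test of the difference itself. These values rest on the fit without the 2 replicate 3 polysomal libraries.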

How the results depend on the processing

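Counts of called members moved under some alternatives. Between the eIF4A2 and eIF4A1 IPs 1 member was called with the replicate number as a block and 1 with DESeq2, against 0. With all 24 gradient libraries 1 member was called in input RNA, 0 in polysomal RNA and 1 for the change in polysome association, against 5, 5 and 3. With no filter 3 were called for CNOT1 siRNA in polysomal RNA and 3 for polysomal against subpolysomal control RNA, against 5 and 5. Leaving out 1 library gave 3 to 4 members for CNOT1 siRNA in polysomal RNA. The fit of all 24 holds the 2 polysomal libraries that went against their labels. In it the targeted CNOT1 was itself not called in polysomal RNA (log2 -1.05, edgeR FDR 0.677). The cause of these moves was not tested. The block changed no call other than those of ZFP36L1, RC3H1 and PUM2 given above. In the gradient 30 of 51 same-number pairs had r over 0.1 (-0.308 to 0.61). Same-numbered TNRC6 libraries had r of 0.821, and with 2 libraries per group both numbers give this same value.

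Over all genes, calls between the eIF4A2 and eIF4A1 IPs numbered 170 higher and 15 lower, but 1245 and 1521 with the block, 541 and 159 with DESeq2, 459 and 538 with no filter and 24 and 0 with only the compared libraries. Between the DDX6 and eIF4A1 IPs they were 14 and 2, but 1062 and 668 with the block, 359 and 182 with DESeq2, 130 and 102 with no filter and 0 and 0 with only the compared libraries. For the TNRC6 experiment 520 and 243 genes were called with the block and 20 and 3 with no filter, against 0.

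No called log2 fold change of a member changed sign under these alternatives. Those that did were uncalled values near 0, with the value under the alternative as follows. ZFP36L1 in the eIF4A1 IP was at -0.01 with RLE factors and DESeq2. ZFP36L2 between the eIF4A2 and eIF4A1 IPs was at -0.00 with no filter. ZFP36 in subpolysomal RNA was at 0.02 with no filter and with only the compared libraries. For polysomal against subpolysomal RNA with control siRNA, PUM2 was at 0.04 with no filter and 0.05 with all 24 libraries, and RC3H1 at 0.02 with no filter. With CNOT1 siRNA, RC3H1 was at 0.07 with no filter, 0.01 with the block and 0.06 with all 24 libraries. RC3H1 after TNRC6A/B siRNA was at 0.00 with RLE factors, the block and DESeq2 and at 0.04 with no filter.

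On leaving out 1 library, these uncalled log2 values crossed 0. In the eIF4A1 IP, ZFP36L1 ranged from -0.05 to 0.07. Between the eIF4A2 and eIF4A1 IPs the ranges were -0.08 to 0.11 for ZFP36L2 and -0.18 to 0.12 for NANOS1, between the eIF4A2 and DDX6 IPs -0.08 to 0.20 for ZFP36, -0.05 to 0.14 for ZFP36L2 and -0.09 to 0.09 for RC3H1, and between the DDX6 and eIF4A1 IPs -0.03 to 0.26 for ZFP36 and -0.07 to 0.05 for ZFP36L2. ZFP36 in subpolysomal RNA ranged from -0.14 to 0.16. For polysomal against subpolysomal RNA with control siRNA PUM2 ranged from -0.18 to 0.02 and RC3H1 from -0.23 to 0.02, and with CNOT1 siRNA RC3H1 ranged from -0.08 to 0.04. For the change in polysome association ZFP36L1 ranged from -0.01 to 0.24 and RC3H1 from -0.03 to 0.22. After TNRC6A/B siRNA the ranges were -0.16 to 0.43 for ZFP36L1, -0.10 to 0.22 for PUM2, -0.41 to 0.07 for NANOS1, -0.32 to 0.38 for RC3H1 and -0.05 to 0.50 for RC3H2. Depth limits ZFP36 most, with 3 to 72 counts per library.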
